A study of Mus musculus with 4 samples.

Results

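The stefins, the cystatins and Slpi are small protein inhibitors of proteases, and 10 of their genes were followed here among the 31053 genes counted in leukocytes of healing mouse skin. They were chosen by gene symbol: the stefin A genes Stfa1, Stfa2, Stfa2l1, Stfa3, Gm5483 and BC100530, then Cstb (stefin B, also called cystatin B), Cst3 (cystatin C), Cst7 (cystatin F) and Slpi (secretory leukocyte peptidase inhibitor). All 10 symbols were found, each as 1 gene. CD45+ cells, the leukocytes, were sorted alive from 3 mm excisional wounds in the back skin of C57BL6/J male mice aged 8 weeks, either Angptl4+/+ or Angptl4-/-, and profiled by droplet single-cell RNA sequencing at 1 or 5 days post-wounding (dpw). The knockout removes Angptl4 from the whole body, so every tissue of the Angptl4-/- mice lacked this secreted regulator of lipid metabolism and matrix contacts. The study set these libraries side by side to ask how the loss of Angptl4 alters the wound leukocytes over time.

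Each of the 4 combinations of genotype and day was 1 library, and the number of mice in a library is not given in the sources used here. No comparison has a replicate, so no test between conditions was run and no p-value is given. Intervals are exact 95% limits for counting error only, and an interval that excludes no difference describes that pair of libraries, not the conditions. After filtering, 5346 cells remained for Angptl4+/+ at 1 dpw, 4945 for Angptl4+/+ at 5 dpw, 4798 for Angptl4-/- at 1 dpw and 4738 for Angptl4-/- at 5 dpw, with a median of 3735.5 to 4975.5 unique molecular identifiers (UMIs, counted molecules) per cell. The Angptl4+/+ libraries held 47 and 78 Angptl4 UMIs and both Angptl4-/- libraries held 0. The Angptl4-/- library at 5 dpw stood apart in red cell RNA, with 8395 UMIs of the haemoglobin gene Hbb-bs against 15 to 58 in the other libraries. Any 2 libraries shared 5 to 15 cell barcodes. Cells were clustered without the 10 genes, and clusters were named by fixed markers: neutrophil-like (3890, 2701, 3699 and 3504 cells, in the order of libraries above), monocyte/macrophage-like (1303, 1682, 972 and 778), dendritic cell-like (112, 314, 89 and 210) and NK cell/T cell-like (36, 227, 36 and 219). A name went to the marker list with the highest mean log2 ratio over all other cells. For neutrophil-like clusters this mean ran from 1.94 (led by Ceacam10 and Ngp) to -0.29 (led by Slc6a13 and Csf1). The name of the latter is thus weakly supported. The mean was also low in the clusters led by Csf3 and Il1a (0.14) and by Siglecf and Acot1 (0.29). Only the cluster led by Ceacam10 and Ngp had a neutrophil marker, Ly6g, among its 10 leading genes.

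Stefins and cystatins block papain-like cysteine proteases, the cathepsins of lysosomes, by sliding a wedge, formed by the amino terminus and hairpin loops, into the active-site cleft. Stefins (A and B) lack a signal peptide and work inside the cell, cystatin C is secreted by most cells, and cystatin F is made by immune cells and carried to their lysosome-like granules. Slpi belongs to another family, built from whey acidic protein domains, and inhibits serine proteases such as neutrophil elastase and cathepsin G. Neutrophils carry large stores of serine proteases, and stefin A and Slpi are known as abundant products of these cells in the mouse.

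The 6 stefin A genes lie in 1 locus on chromosome 16 (GRCm38, the build of the deposited counts), all protein coding. In order, these are Stfa2l1 (36156811 to 36161953, plus strand), Gm5483 (36184212 to 36188111, plus), Stfa1 (36276951 to 36285373, plus), BC100530 (36359382 to 36367748, minus), Stfa2 (36403992 to 36408457, minus) and Stfa3 (36450537 to 36455392, minus). Cstb lies on chromosome 10 (78425669 to 78427622, plus), while Cst3 (148871722 to 148875692, minus), Cst7 (150570415 to 150578944, plus) and Slpi (164354070 to 164389095, minus) lie on chromosome 2. The exonic windows of 39 bases below show how alike the stefin genes are where it matters for function. They run 5′ to 3′ on the coding strand, with capitals at the codons of the hairpin loop that enters the protease cleft:
Stfa1: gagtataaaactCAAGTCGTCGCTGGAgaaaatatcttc
BC100530: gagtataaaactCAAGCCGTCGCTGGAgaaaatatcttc
Stfa2: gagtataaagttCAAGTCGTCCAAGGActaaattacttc
Stfa2l1: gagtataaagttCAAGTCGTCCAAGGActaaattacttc
Stfa3: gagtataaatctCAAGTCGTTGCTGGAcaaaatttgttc
Gm5483: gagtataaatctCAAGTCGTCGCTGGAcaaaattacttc
Cstb: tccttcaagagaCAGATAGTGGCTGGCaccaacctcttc

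The windows lie at chr16:36280523-36280561 for Stfa1, chr16:36364218-36364256 for BC100530, chr16:36405136-36405174 for Stfa2, chr16:36160003-36160041 for Stfa2l1, chr16:36452157-36452195 for Stfa3, chr16:36186421-36186459 for Gm5483 and chr10:78426984-78427022 for Cstb. Stfa2 and Stfa2l1 were identical over the window, and their coding sequences matched at 96.4% of 309 aligned bases. Stfa1 and BC100530 matched at 97.9% of 291 bases. The other pairs of the 6 genes matched at 77.7% to 84.5%, and each of them with Cstb at 56.9% to 62.9%.

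This likeness limits how firmly reads can be assigned. Words of 31 bases were taken from the last 300 bases of the transcripts, where this 3′ chemistry reads. They were looked up over the full length of the transcripts of all other genes, of the stefin family or not. Another gene held 82.6% of the words of BC100530, 56.8% of Stfa1, 44.8% of Stfa2, 43.7% of Gm5483 and 37.4% of Stfa2l1. With words of 91 bases the shares were lower, at 40.95%, 14.7%, 3.33%, 20.95% and 2.86% in the same order. Stfa3, Cstb, Cst3, Cst7 and Slpi shared none at either length. The counting keeps reads that map to 1 gene, so the levels of the first 5 genes, and the split between Stfa1 and BC100530 above all, are uncertain, while Stfa3 and the genes outside the locus are free of this limit.

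The genes did not all peak in the same class of wound leukocytes. Levels are given as CPM, the UMIs of a gene summed over the cells of a class, per 1000000 of all UMIs of those cells. Counting was of transcript ends, so a level does not scale with transcript length. Neutrophil-like cells held 97.0%, 95.4%, 97.6% and 96.8% of all stefin A UMIs. Slpi was also highest there, at 5519 to 6073 CPM. Cst3 was highest in dendritic cell-like cells, at 5885 to 9592 CPM, Cstb was highest in macrophage-like cells at 1 dpw, and Cst7 was near absent outside NK cell/T cell-like and dendritic cell-like cells.

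**Figure D1:**
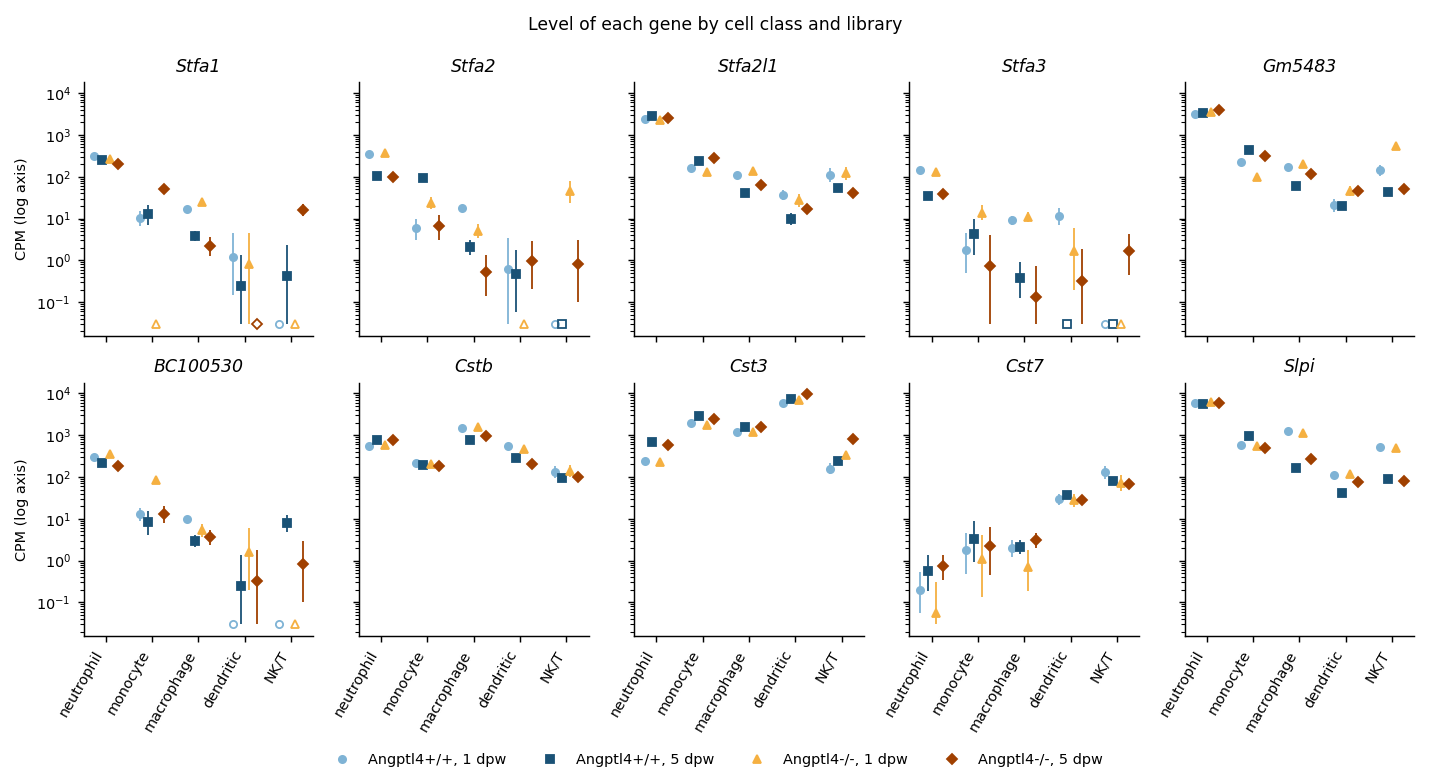
Level of each of the 10 genes (CPM, log axis) in 5 classes of wound leukocytes, 1 point per library with its exact 95% Poisson interval; open symbols at the bottom edge mark 0 UMIs. The stefin A genes and Slpi peak in neutrophil-like cells, Cst3 in dendritic cell-like cells (5885 to 9592 CPM) and Cst7 in NK cell/T cell-like cells (69.6 to 129 CPM).

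In neutrophil-like cells, Gm5483 and Stfa2l1 made up most of the stefin A RNA. In Angptl4+/+ wounds Gm5483 stood at 3182 CPM (95% interval 3157 to 3207) on the first day and 3390.1 (3351 to 3429) on the later one, and in Angptl4-/- wounds at 3509.8 (3483 to 3537) and 3886 (3851 to 3921). Stfa2l1 stood at 2386 (2365 to 2408) and 2771 (2736 to 2806) in Angptl4+/+, and at 2314 (2292 to 2336) and 2478 (2451 to 2506) in Angptl4-/-. Gm5483 alone gave 47.6%, 50.1%, 50.7% and 56.4% of the stefin A UMIs of these cells and Stfa2l1 gave 35.7%, 40.98%, 33.4% and 36.0%.

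The other 4 genes of the locus were far lower. Stfa1 was at 312 CPM (304 to 319.7) and 248 (237 to 258) in Angptl4+/+, and 259.8 (252 to 267) and 206 (198 to 214) in Angptl4-/-. BC100530 was at 304 (297 to 312), 215 (205 to 225), 350.2 (342 to 359) and 181 (174 to 189) in the same order. Both were lower at 5 than at 1 dpw in each genotype.

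Stfa2 and Stfa3 were the genes of the locus with the widest gap between days. In Angptl4+/+, Stfa2 was at 349 CPM (341 to 357) early and 104 (97.5 to 111) late, and in Angptl4-/- at 362 (353 to 371) and 96.2 (90.8 to 102). Stfa3 was at 146 (141 to 151) and 33.9 (30.2 to 38.0) in Angptl4+/+, and at 132 (127 to 137) and 37.7 (34.3 to 41.3) in Angptl4-/-. In both genotypes the 5 dpw libraries were well below the 1 dpw libraries, with intervals far apart, and the share of Stfa2 in the stefin A RNA was 5.22% at 1 dpw against 1.54% (Angptl4+/+) and 1.40% (Angptl4-/-) at 5 dpw.

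The sum of the 6 genes hardly differed between libraries, at 6679.6 CPM (6644 to 6716), 6762 (6707 to 6817), 6927 (6889 to 6966) and 6885 (6839 to 6932). This total was of the same size as Slpi, which was at 5916 (5882 to 5949.6), 5519 (5469.8 to 5569), 6073 (6037 to 6109) and 5824 (5781 to 5867). Neutrophil-like cells thus carried similar amounts of RNA for an intracellular family of cysteine protease inhibitors and for a secreted serine protease inhibitor, on this scale.

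The genes also differed in how their RNA was spread over cells. To compare cells of unequal depth, each cell was thinned to 1000 UMIs, and cells below that depth were left out (35, 109, 23 and 92 neutrophil-like cells). Slpi was detected in 97.4%, 90.7%, 98.1% and 91.7% of neutrophil-like cells and, after thinning, in 89.0%, 81.1%, 89.3% and 81.4%. Gm5483 was detected in 57.6%, 51.9%, 51.7% and 52.4% (47.6%, 44.6%, 42.9% and 44.8% thinned) and Stfa2l1 in 56.5%, 54.2%, 51.0% and 52.8% (48.0%, 45.3%, 44.0% and 44.4% thinned). Slpi RNA was therefore found in most of these cells and RNA of each leading stefin A gene in about every other cell. At least 1 stefin A UMI was present in 63.6%, 58.6%, 57.9% and 56.6% of thinned neutrophil-like cells. In dendritic cell-like cells, a class of 12825.5 to 14013.5 median UMIs that should lack these genes, it was 6.25%, 2.24%, 3.37% and 1.90%. The NK cell/T cell-like classes of 36, 227, 36 and 219 cells gave 2, 8, 4 and 13 positive thinned cells. Monocyte/macrophage-like classes of 1303, 1682, 972 and 778 cells gave 114, 72, 88 and 37.

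The minor stefin A genes were concentrated in few cells. Stfa2 was detected in 10.9% (exact Clopper-Pearson 95% interval 9.96 to 11.9), 3.26% (2.62 to 3.999), 10.4% (9.39 to 11.4) and 3.71% (3.11 to 4.39) of neutrophil-like cells (7.96%, 2.47%, 7.51% and 2.75% thinned) and Stfa3 in 8.66%, 1.26%, 8.30% and 2.31% (5.29%, 0.656%, 4.57% and 1.35% thinned). Stfa1 was detected in 4.62% to 6.17% and BC100530 in 3.02% to 5.86% of thinned cells. These cells held much RNA each: the highest single cell had 121 UMIs of Stfa2, 240 of BC100530, 148 of Stfa1 and 74 of Stfa3.

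The top 5% of cells by each gene held 85.8% to 100% of the Stfa2 UMIs, 93.4% to 100% of Stfa3, 94.7% to 99.0% of Stfa1 and 95.7% to 100% of BC100530. A share of 100% follows where under 5% of cells hold the gene, as for Stfa2, Stfa3 and BC100530 at 5 dpw, and there it adds nothing to the detection. The matching shares were 28.1% to 36.6% for Stfa2l1, 31.3% to 38.8% for Gm5483, 32.6% to 34.7% for Cstb, 24.8% to 27.8% for Cst3 and 23.2% to 31.9% for Slpi. Cells positive for Stfa2 were fewer at 5 dpw, while the content of a positive cell was close in Angptl4+/+ and lower in Angptl4-/-. A thinned cell with Stfa2 carried a mean of 4.16 (Angptl4+/+) and 4.17 (Angptl4-/-) UMIs at 1 dpw and 4.09 and 3.19 at 5 dpw. Before thinning, cells with at least 10 Stfa2 UMIs were 5.40% and 5.43% of the class at 1 dpw. At 5 dpw, when cells were also shallower, they were 1.04% and 1.26%. For Stfa3 the mean was 2.67 and 2.77 UMIs at 1 dpw and 3.53 and 2.54 at 5 dpw.

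**Figure D2:**
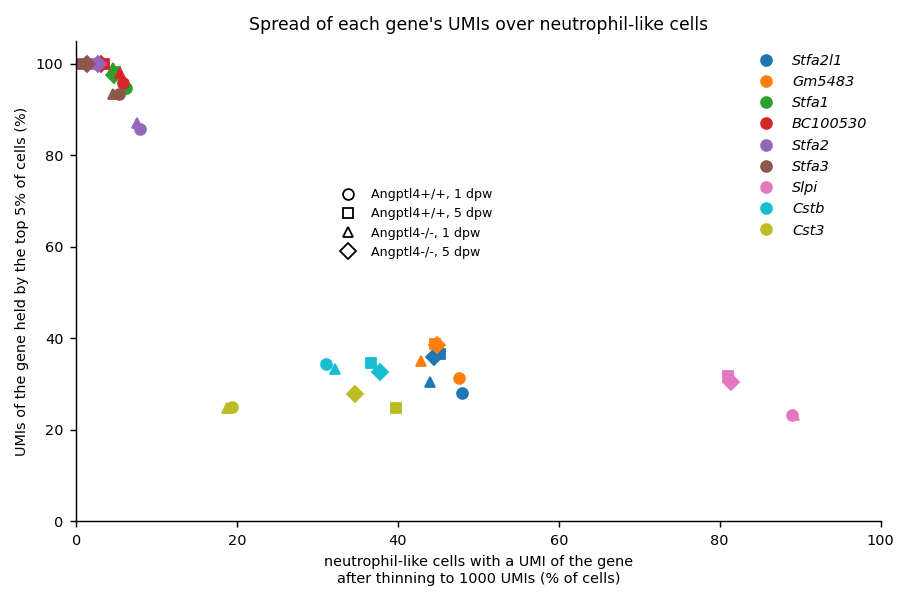
Share of neutrophil-like cells with a UMI of the gene after thinning to 1000 UMIs (x axis, percent) against the share of the gene's UMIs held by the top 5% of cells (y axis, percent), for 9 genes in 4 libraries. Stfa1, Stfa2, Stfa3 and BC100530 sit at the top left (few cells, at least 85.8% of UMIs in the top cells), Slpi at the lower right.

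Between 28.0% and 35.7% of neutrophil-like cells had no stefin A UMI at all: 28.0%, 34.2%, 34.7% and 35.7% in the 4 libraries. Those cells had a median of 4291, 3144, 4249 and 3295 UMIs, against 4682.5, 3219, 4637 and 3394 over the class, so they were only slightly shallower than the class. Cells with no stefin A gene at 10 UMIs or more were 49.3%, 62.4%, 52.7% and 61.4% of the class.

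Some stefin A genes were high in the same cells. Across neutrophil-like cells the Pearson correlation of log-scaled UMIs between Stfa2l1 and Gm5483, whose gap is 22.3 kb, had a median of 0.63 over the 4 libraries (lowest 0.58, highest 0.69). The pair BC100530 and Stfa2, 36.2 kb apart, had 0.42 (0.35 to 0.50), Stfa2 and Stfa3, 42.1 kb apart, had 0.33 (0.16 to 0.44), and BC100530 and Stfa3, 82.8 kb apart, had 0.27 (0.21 to 0.29). The other 11 of 15 pairs had medians of 0.14 to 0.22. These 4 leading pairs share little or no 3′ sequence (at most 1.48% of words) and lie within 82.8 kb of each other. Counting the further stefin genes of the locus, the order did not follow nearness alone: Gm5483 and 2010005H15Rik (33.4 kb, 41.7% of words) had 0.28, and Gm5416 and 2010005H15Rik, the closest at 3.68 kb, had 0.23. Stfa1 and BC100530, 74.0 kb apart and with 63.0% shared words, had 0.19, and Stfa2l1 and Stfa2, with 37.0%, also had 0.19. The points are cells of 1 library each (3890, 2701, 3699 and 3504), which share its depth and preparation, and the correlations are a description.

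**Figure D3:**
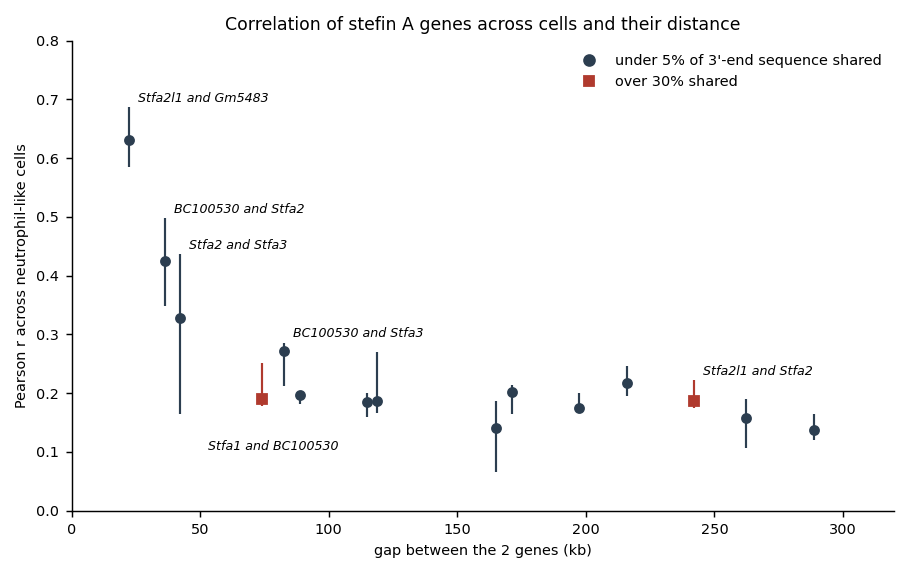
Median Pearson correlation across neutrophil-like cells for the 15 pairs of stefin A genes (y axis) against the gap between the genes on chromosome 16 (x axis, kb); bars run from the lowest to the highest of 4 libraries and squares mark pairs that share over 30% of 3′-end words. Stfa2l1 and Gm5483 lead at 0.63, and the squares are among the low pairs.

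Plain shares of thinned cells with both genes gave another order. Among cells with Stfa2l1, 72.0%, 71.1%, 71.1% and 76.0% also had Gm5483, against 47.6%, 44.6%, 42.9% and 44.8% of all neutrophil-like cells, ratios of 1.51 to 1.70. Among cells with BC100530, 43.8%, 34.8%, 42.5% and 31.1% also had Stfa2, against 7.96%, 2.47%, 7.51% and 2.75% of all, ratios of 5.50 to 14.1. Stfa1 and BC100530 had ratios of 3.70 to 5.14. The ratio cannot be large for genes found in many cells, and Stfa2l1 with Gm5483 led by correlation alone. Across cells, Gm5483 was not related to the members elsewhere in the genome: its correlations with Slpi, Cstb and Cst3 lay between -0.11 and 0.10.

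The sequence just before the RefSeq start sites shows what the locus shares there. RefSeq entries (GRCm38.p6) were found for 9 of the 10 genes, none for Cstb. These starts do not always match the gene bounds given above. Inside those bounds lay 197 of the 250 bases for Stfa1, 94 for Stfa2, 178 for BC100530, 180 for Cst3 and all 250 for Slpi. For the 3 windows printed here it was 0. The windows below hold the 250 bases upstream of the start for Stfa2l1 (chr16:36156561-36156810, plus strand), Gm5483 (RefSeq symbol Cstdc4, chr16:36183962-36184211, plus) and Stfa3 (chr16:36455393-36455642, minus), shown for the most abundant pair and for the gene with the widest gap between days in Angptl4+/+. They are written 5′ to 3′ on the strand of the gene, with capitals at the longest run of letters that the windows of all 6 stefin A genes share, 12 bases:
Stfa2l1: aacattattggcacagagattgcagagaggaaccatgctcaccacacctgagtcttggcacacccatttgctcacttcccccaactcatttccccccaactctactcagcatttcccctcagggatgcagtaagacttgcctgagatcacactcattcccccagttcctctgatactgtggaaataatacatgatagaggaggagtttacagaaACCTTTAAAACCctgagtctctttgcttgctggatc
Gm5483: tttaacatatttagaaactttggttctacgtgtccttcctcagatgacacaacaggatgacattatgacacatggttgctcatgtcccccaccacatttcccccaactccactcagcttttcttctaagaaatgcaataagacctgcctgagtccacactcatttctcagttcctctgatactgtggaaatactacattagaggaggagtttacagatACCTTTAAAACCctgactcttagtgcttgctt
Stfa3: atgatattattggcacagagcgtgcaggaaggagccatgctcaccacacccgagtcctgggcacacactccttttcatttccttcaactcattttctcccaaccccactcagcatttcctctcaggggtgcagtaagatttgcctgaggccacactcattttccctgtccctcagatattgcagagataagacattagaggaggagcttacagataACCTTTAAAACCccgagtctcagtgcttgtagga

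The run, ACCTTTAAAACC, began 32 to 36 bases before the RefSeq start in 5 of the 6 genes and 12 bases before it in BC100530. It was taken from these 6 windows, so its presence there is a matter of choice. On either strand it occurred in 11 of 32851 RefSeq promoter windows (0.0335%). Of the 11, 9 belong to the stefin locus, and these include the 6 windows that it was taken from. It was not in the windows of Cst3, Cst7 or Slpi, nor in that of Csta1, a further stefin gene of the locus. Motifs of known factors or elements were looked up on both strands as letters alone. The C/EBP letters TTNNGNAA were in 5 of the 6 windows (all but Stfa3) and in 36.8% of all promoters. The PU.1 letters GAGGAA were in 6 of 6 and in 23.3% of all, the AP-1 letters TGANTCA in 0 of 6 (6.75% of all), TATAAA in 0 of 6 (12.4%) and the NF-kB letters GGGA, 1 free base and TTTCC in 0 of 6 (0.356%). The 6 windows matched each other at 71.1% to 96.1% of aligned bases, so a motif in all of them is not 6 separate finds. Overlaps between motifs were not removed, and a match describes letters, not binding.

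The first comparison asked how the inhibitors differed between 1 and 5 dpw within each genotype. Ratios are log2 values of 5 over 1 dpw, a gene counts as past the cut at 2-fold or more with at least 100 UMIs over both libraries, and 9 of the 10 genes had that many in neutrophil-like cells (Cst7 did not, with 1 to 9 UMIs per library). In Angptl4+/+ neutrophil-like cells 1 of the 9 was higher (Cst3) and 2 were lower (Stfa2, Stfa3), against 30.7% higher and 1.86% lower among 6623 genes. In Angptl4-/- it was again 1 higher and 2 lower, the same genes, against 32.9% and 1.78% of 6679 genes. Cst3 thus went with a large part of the transcriptome, while Stfa2 and Stfa3 sat on the side where few genes were.

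Stfa3 had a log2 ratio of -2.10 (-2.28 to -1.93) in Angptl4+/+ and -1.81 (-1.95 to -1.66) in Angptl4-/-, and Stfa2 had -1.74 (-1.84 to -1.64) and -1.91 (-2.001 to -1.82). Cst3 went from 235 CPM (228 to 242) to 694 (676 to 711) in Angptl4+/+, a log2 ratio of 1.56 (1.51 to 1.62). In Angptl4-/- it went from 230.3 (223 to 237) to 581 (568 to 595), or 1.34 (1.28 to 1.39). At 1 dpw the share of cells with Cst3 was near that of NK cell/T cell-like cells (given with the free RNA values). Cst3 was thus the member past 2-fold upward, and Stfa2 and Stfa3 were those past it downward.

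On the CPM scale the remaining members differed by less than 2-fold. BC100530 had -0.50 (-0.58 to -0.43) and -0.95 (-1.02 to -0.88), and Stfa1 had -0.33 (-0.40 to -0.26) in both genotypes. Cstb, the general intracellular inhibitor, went from 557 CPM (547 to 568) to 779 (761 to 798) in Angptl4+/+ and from 586 (575 to 597) to 752 (737 to 768) in Angptl4-/-, log2 ratios of 0.48 and 0.36. Stfa2l1 had 0.22 and 0.10, Gm5483 0.09 and 0.15, Slpi -0.10 and -0.06, and the stefin A sum 0.02 and -0.01.

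These values depend on what they are set against, because the median gene was itself at 0.66 in Angptl4+/+ and 0.69 in Angptl4-/-. Over the same libraries 10 neutrophil marker genes took 124035 and 32607 CPM of all Angptl4+/+ cells (1 and 5 dpw), and 147250 and 50148 CPM of all Angptl4-/- cells. The part of this in the shift of the median was not tested. Relative to the median gene, Stfa3 was at -2.76 and -2.49, Stfa2 at -2.40 and -2.60, BC100530 at -1.16 and -1.64, Stfa1 at -0.99 and -1.02, Slpi at -0.76 and -0.75 and the stefin A sum at -0.64 and -0.69. On this scale BC100530 in both genotypes and Stfa1 in Angptl4-/- were also more than 2-fold lower. Cst3 stayed above it, at 0.90 and 0.65, but short of 2-fold. The sign flipped on this scale for Stfa2l1 (-0.44 and -0.59), Gm5483 (-0.57 and -0.54) and Cstb (-0.17 and -0.33).

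**Figure D4:**
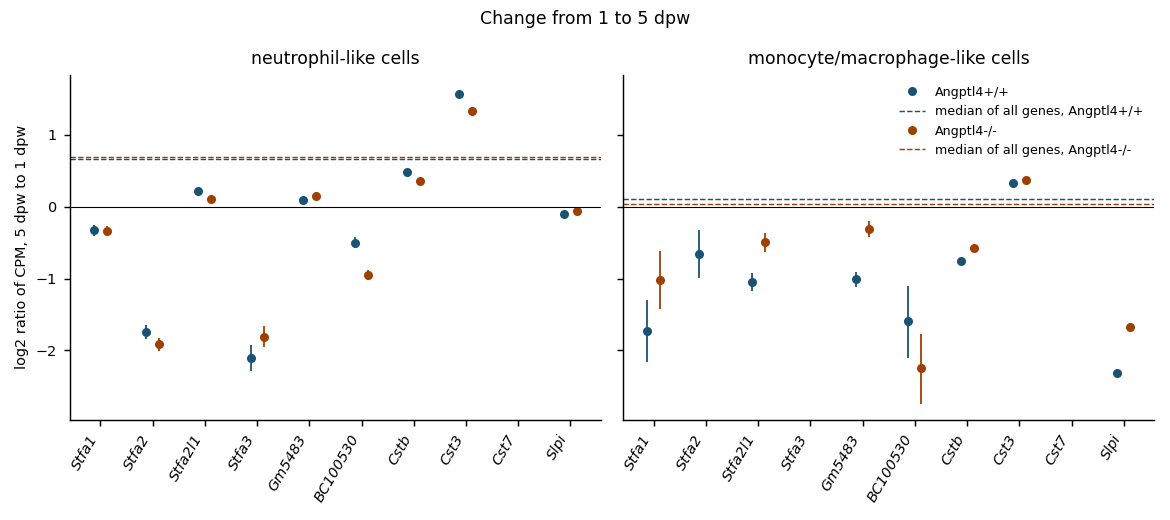
Log2 ratio of 5 over 1 dpw for each gene in neutrophil-like and monocyte/macrophage-like cells, 1 point per genotype with its exact 95% counting interval; dashed lines mark the median of all genes in each genotype. In neutrophil-like cells Stfa2 and Stfa3 lie far below the median and Cst3 above it; genes with under 100 UMIs are not drawn.

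The day differences of Cst3, Stfa2 and Stfa3 were also present inside neutrophil-like clusters. Cst3 was higher at 5 dpw in 6 of 6 clusters in both genotypes (log2 0.59 to 2.13 in Angptl4+/+, 0.20 to 1.68 in Angptl4-/-). Stfa2 was lower in 5 of 5 clusters with enough UMIs (-2.89 to -0.42 and -3.23 to -0.80), as was Stfa3 (-4.34 to -1.40 and -3.89 to -0.49). Cstb was higher in 5 of 6 and 4 of 6 clusters, and Slpi was higher in 3 of 6 in each genotype. Stfa1 and BC100530, lower over the class, were mixed. Stfa1 was higher in 3 of 6 and 1 of 6 clusters (-1.42 to 0.46 and -2.17 to 0.88). BC100530 was higher in 2 of 5 and 1 of 5 (-2.42 to 0.93 and -2.20 to 0.47). The stefin A sum, flat over the class, differed in both directions: in the cluster led by Slc6a13 and Csf1 it went from 5649.6 to 8096 CPM (log2 0.52) and in Angptl4-/- from 5261 to 7130.3 (0.44), while in the cluster led by Siglecf and Acot1 it went from 5243 to 3113 (-0.75) and from 4791 to 3927 (-0.29). In the cluster led by Ceacam10 and Ngp it was at -0.31 and -0.36.

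The clusters differed in their inhibitors as well, which is a description because the cells define the clusters. Cstb was at 1789.7, 1891, 1977.5 and 1869 CPM in the cluster led by Slc6a13 and Csf1, and at 156, 250.1, 141 and 228 in the cluster led by Ceacam10 and Ngp. Cst3 was at 689, 1784, 691 and 1648 in the cluster led by Siglecf and Acot1 and at 104, 214, 92.0 and 233 in that led by Csf3 and Il1a, where Slpi was highest (8333, 10248, 9109 and 9669). Stefin B and cystatin C, which inhibit overlapping sets of cathepsins, thus had their highest levels in separate clusters.

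**Figure D5:**
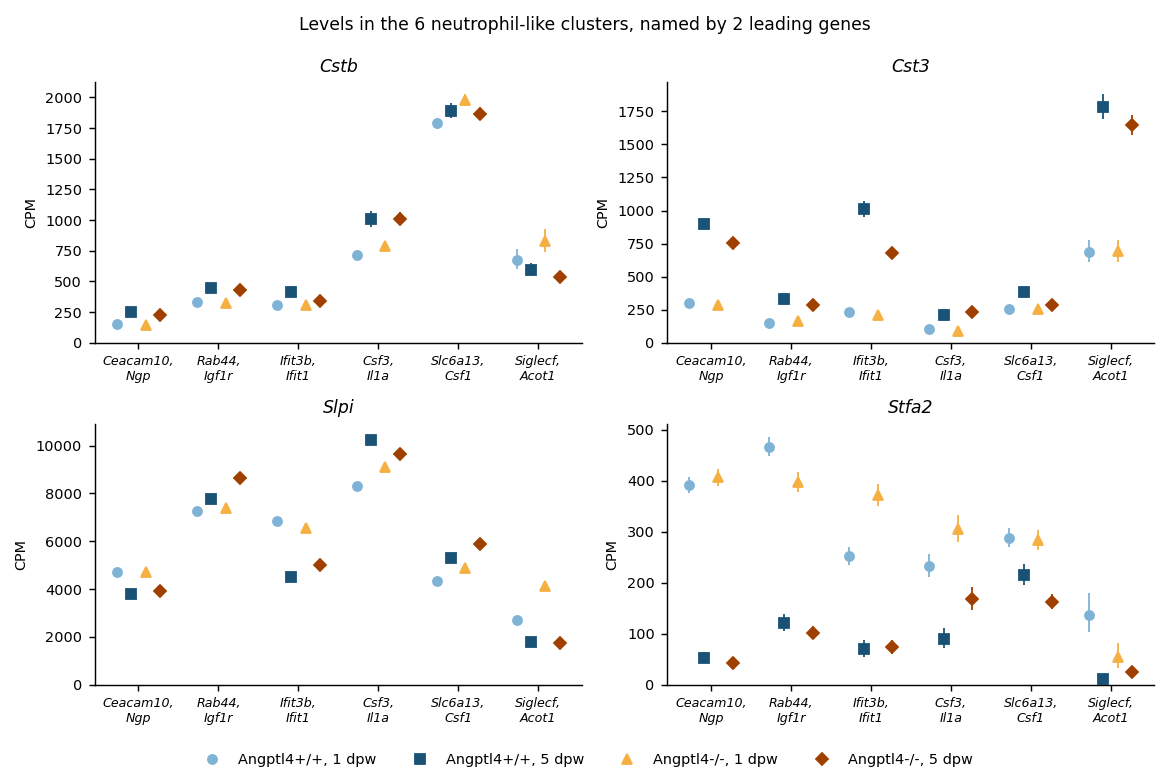
Level (CPM) of Cstb, Cst3, Slpi and Stfa2 in the 6 neutrophil-like clusters, each named by its 2 leading genes, with 1 point per library. Cstb is highest in the Slc6a13 and Csf1 cluster (1789.7 to 1977.5 CPM), Cst3 in the Siglecf and Acot1 cluster and Slpi in the Csf3 and Il1a cluster.

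Across single neutrophil-like cells Cstb had a correlation of -0.40, -0.39, -0.45 and -0.39 with Cxcr2, the receptor that brings neutrophils out of the blood, and of 0.29, 0.31, 0.34 and 0.27 with the chemokine gene Ccl3. Cst3 had 0.26, 0.41, 0.25 and 0.41 with the gelatinase gene Mmp9 and -0.20, -0.34, -0.22 and -0.25 with Ccl3. Between Cstb and Cst3 themselves the correlation was weak, at -0.04, -0.13, -0.04 and -0.16. The contrast between clusters was thus faint when the 2 genes were compared cell by cell, over 3890, 2701, 3699 and 3504 cells.

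The second comparison set Angptl4-/- against Angptl4+/+ on the same day. In neutrophil-like cells 0 of 9 members passed 2-fold at either day, against 0.309% higher and 0.649% lower of 6472 genes at 1 dpw, and 0.565% higher and 0.565% lower of 6729 genes at 5 dpw. At 1 dpw the log2 ratios of Angptl4-/- over Angptl4+/+ ran from -0.26 (Stfa1, -0.32 to -0.21) to 0.20 (BC100530, 0.15 to 0.25), and at 5 dpw from -0.27 (Stfa1, -0.35 to -0.18) to 0.20 (Gm5483, 0.18 to 0.22). Stfa1 was lower and Gm5483 higher (0.14 and 0.20) in Angptl4-/- at both days, Cst3 was at -0.03 and -0.25, Slpi at 0.04 and 0.08, and the stefin A sum at 0.05 and 0.03. The median gene was at -0.09 and -0.07. Gm5483 was higher in 5 of 6 clusters at both days, and Cst3 was higher in 1 of 6 at 5 dpw.

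In monocyte/macrophage-like cells the order of the members was another. Cst3 led, at 1353 CPM (1331 to 1374) and 1703 (1682 to 1724) in Angptl4+/+, and 1292 (1267 to 1318) and 1677 (1651 to 1704) in Angptl4-/-. Cstb followed at 1218 (1198 to 1239) and 723 (709 to 737) in Angptl4+/+, and 1256 (1231 to 1281) and 842 (823 to 861) in Angptl4-/-. Cystatin C was thus higher and stefin B lower at 5 dpw in both genotypes.

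Of the 8 members with enough UMIs in Angptl4+/+, 0 were higher and 5 were lower at 5 dpw (Stfa1, Stfa2l1, Gm5483, BC100530 and Slpi), against 3.91% higher and 3.38% lower of 9105 genes. In Angptl4-/- it was 0 higher and 3 lower of 7 (Stfa1, BC100530 and Slpi), against 2.37% and 2.44% of 8353 genes. Most of these stefin A calls did not last: in Angptl4+/+ Stfa1 went from -1.72 to -0.37 without likely doublets, BC100530 from -1.59 to -0.40 thinned, Stfa2l1 from -1.05 to -0.52 and Gm5483 from -1.01 to -0.81 with equal weight per cell. In Angptl4-/- Stfa1 went from -1.01 to -0.91 without likely doublets. Leaving out likely doublets also put other stefin A genes past 2-fold lower. Stfa2 in Angptl4+/+ went from -0.66 to -4.37 and Stfa2l1 in Angptl4-/- from -0.49 to -1.19. The ratio of Cst3 was 0.33 (0.30 to 0.36) and 0.38 (0.34 to 0.41), and that of Cstb -0.75 (-0.79 to -0.72) and -0.58 (-0.62 to -0.53), with the median gene at 0.10 and 0.04. Both held inside each of the 3 clusters of the class: Cst3 was higher in 3 of 3 (0.36 to 0.55 in Angptl4+/+, 0.33 to 0.49 in Angptl4-/-) and Cstb lower in 3 of 3 (-1.001 to -0.11 and -0.89 to -0.16). Macrophage-like cells carried most of the Cstb, at 1469.9, 771, 1579 and 959 CPM against 187 to 212 in monocyte-like cells, whereas Cst3 was higher in monocyte-like cells (1723 to 2926) than in macrophage-like cells (1159.7 to 1592).

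Slpi was the most abundant member past 2-fold in this class, at 1152 CPM (1132 to 1172) and 232 (224 to 240.2) in Angptl4+/+, and 975 (953 to 997) and 304 (293 to 316) in Angptl4-/-, log2 ratios of -2.31 (-2.37 to -2.26) and -1.68 (-1.74 to -1.62). The gap lay in macrophage-like cells, where Slpi was at 1292, 167, 1109.6 and 271. In monocyte-like cells it was at 590.0, 947, 539 and 494, so in Angptl4+/+ the monocyte-like cluster went the other way. Neutrophil granule and maturation genes were lower late in monocyte/macrophage-like cells, 9 of 12 in Angptl4+/+ (median -1.68) and 7 of 10 in Angptl4-/- (median -1.15). Of all genes in that class 3.38% and 2.44% were lower. The part of the granule and maturation genes in the Slpi difference was not tested. After thinning, 36.2%, 10.1%, 32.8% and 13.7% of monocyte/macrophage-like cells had an Slpi UMI. The level was concentrated: the top 5% of cells held 50.4%, 75.6%, 51.0% and 72.0% of the Slpi UMIs of the class. A single cell held up to 434.

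Free RNA from neutrophils can give UMIs in other cells, so the level in monocyte/macrophage-like cells was set against that of 10 neutrophil marker genes, each as a percent of its own level in neutrophil-like cells. Slpi stood at 19.5%, 4.21%, 16.1% and 5.23%, and the marker genes had medians of 6.17%, 2.81%, 4.93% and 2.87% with highest values of 12.7%, 7.40%, 14.5% and 7.51%. At 1 dpw Slpi over this class was thus above every marker gene and at 5 dpw it lay within their range. Monocyte-like cells alone differed. There Slpi was at 9.97% and 17.15% in Angptl4+/+ (highest marker gene 20.9% and 15.8%). In Angptl4-/- it was at 8.87% and 8.48% (highest 22.0% and 15.7%). Over all monocyte/macrophage-like cells the stefin A sum stood at 5.24%, 2.47%, 5.45% and 3.72%. That was within the range of the marker genes, so it is not read as expression by this class. Among its members, Stfa2 in Angptl4+/+ at 5 dpw stood above that range, at 9.36%. The top 5% of cells held 90.4% to 95.7% of the stefin A UMIs of the class, and 1 cell held up to 392. Whether these UMIs came from free RNA or from doublets was not tested. Differences of stefin A between days and genotypes in this class are given as values only.

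The same check for the macrophage genes in neutrophil-like cells gave medians of 0.281%, 0.556%, 0.172% and 0.266% over 7 genes, with a highest value of 2.20%. Cst3 stood at 17.4%, 40.7%, 17.8% and 34.6% of its monocyte/macrophage-like level, far above them, and Cstb at 45.7%, 108%, 46.6% and 89.4%. The cluster led by Slc6a13 and Csf1, whose name is weakly supported, held much of this Cstb. It had 5920 of 10974, 3553 of 6750, 5895 of 10733 and 4992 of 9241 UMIs. A second measure was the share of thinned cells with a Cst3 UMI, at 19.4%, 39.7%, 18.7% and 34.6% in neutrophil-like cells. The NK cell/T cell-like class, which is not known for Cst3, gave 16.7%, 16.3%, 13.9% and 19.6%. Before thinning the shares were 55.8%, 65.2%, 54.6% and 62.8% against 47.2% to 61.2%, at median depths of 3219 to 4682.5 and 6273.5 to 7147 UMIs. By this measure Cst3 over all neutrophil-like cells was near the NK cell/T cell-like share at 1 dpw and above it at 5 dpw. The 1 dpw reference was 36 cells per library, with a Cst3 UMI after thinning in 6 (Angptl4+/+) and 5 (Angptl4-/-). Cst3 also differed between neutrophil-like clusters at 1 dpw, as given above. The part of free RNA in its 1 dpw level was not tested. In Angptl4-/- at 5 dpw the NK cell/T cell-like level of Cst3 was itself 825 CPM, with 858 of its 1979 UMIs in 1 cell.

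Between genotypes, Cst3 in monocyte/macrophage-like cells was at -0.07 (-0.10 to -0.03) at 1 dpw and -0.02 (-0.05 to 0.01) at 5 dpw. Cstb was at 0.04 and 0.22, Slpi at -0.24 (-0.28 to -0.20) and 0.39 (0.32 to 0.46) and the stefin A sum at 0.11 and 0.62. At 1 dpw 1 of 9 members was higher (BC100530) and 0 lower, against 0.296% higher and 0.355% lower of 8445 genes. At 5 dpw 1 of 7 was higher (Stfa1) and 1 lower (Stfa2), against 0.509% and 0.553% of 9043 genes. The 3 named genes are stefin A genes at 1.43 to 24.1 CPM in this class: without likely doublets BC100530 at 1 dpw went from 1.22 to -0.89 and Stfa2 at 5 dpw from -2.77 to 0.32.

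Dendritic cell-like cells, which cut antigens with cathepsins before presenting them, held the highest Cst3 of any class, at 5885 CPM (5768 to 6003) and 7322 (7239 to 7405) in Angptl4+/+, and 6887 (6740.4 to 7036) and 9592 (9482 to 9703) in Angptl4-/-. The log2 ratio of Cst3 was 0.32 (0.28 to 0.35) and 0.48 (0.44 to 0.51) between days, and 0.23 (0.18 to 0.27) and 0.39 (0.37 to 0.41) between genotypes at 1 and 5 dpw. Cstb went the other way between days, from 549 to 286 (-0.94) and from 468 to 207 (-1.18). The class rests on 89 to 314 cells per library. At resolution 1.0 the name went to a cluster led by Sept3 and Cd209a (348 cells) and to another led by Fscn1 and Apol7c (336). The part of their mix in these differences was not tested.

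Cst7, whose product restrains the cathepsins that switch on granule enzymes, was at 129, 81.6, 72.7 and 69.6 CPM in NK cell/T cell-like cells and at 29.3, 37.1, 28.0 and 28.4 in dendritic cell-like cells. In Angptl4+/+ at 1 dpw 1 NK cell/T cell-like cell held 19 of the 36 UMIs, so the level of 129 rests on that cell. It was detected in 30.6%, 42.3%, 33.3% and 42.01% of NK cell/T cell-like cells and, after thinning, in 11.1%, 8.81%, 11.1% and 8.22%. In neutrophil-like cells it had 4, 5, 1 and 9 UMIs, and in B cell-like cells 0. The 36 NK cell/T cell-like cells of each 1 dpw library are too few for a comparison between days.

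The cathepsins that these inhibitors act on were followed as a list of 11 genes, 7 of them with enough UMIs in neutrophil-like cells. Between days 2 were higher and 0 lower in Angptl4+/+, and 1 higher and 0 lower in Angptl4-/-, no larger a share than among all genes (30.7% and 32.9% higher, 1.86% and 1.78% lower), with list medians of 0.38 and 0.47 against 0.66 and 0.69 over all genes. The protease legumain (Lgmn) had the highest ratio, 2.05 and 1.69, and cathepsin S (Ctss) followed at 1.202 and 0.82. Cathepsin C (Ctsc), the activator of granule serine proteases, was lowest in Angptl4+/+ at -0.97 and cathepsin B (Ctsb) went from 649 to 715 CPM and from 695 to 618 (0.14 and -0.17). Between genotypes 0 of 7 passed at either day. Of all genes 0.309% were higher and 0.649% lower at 1 dpw, and 0.565% each way at 5 dpw. In monocyte/macrophage-like cells 9 had enough UMIs and 0 passed 2-fold in any of the 4 comparisons. Among all genes of that class 2.37% to 3.91% passed in each direction between days and 0.296% to 0.553% between genotypes. The list medians between days were 0.37 and -0.03 against 0.10 and 0.04 over all genes.

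A list of 6 serine proteases of neutrophils and mast cells, which holds the Slpi targets Elane and Ctsg, had too few UMIs to compare in Angptl4+/+ neutrophil-like cells. In Angptl4-/- at 5 dpw 725 Cma1, 566 Mcpt4 and 236 Tpsb2 UMIs, mast cell proteases, appeared in the class, and 1 cell held 725, 564 and 235 of them. In monocyte/macrophage-like cells the proteinase 3 gene Prtn3 was at 43.9, 10.1, 47.4 and 6.17 CPM.

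Among 17 other protease inhibitors of leukocytes, 7 had enough UMIs in neutrophil-like cells, and 1 was higher and 4 lower at 5 dpw in each genotype (medians -1.11 and -1.76 against 0.66 and 0.69 over all genes, of which 30.7% and 32.9% were higher and 1.86% and 1.78% lower). Wfdc17, built like Slpi from a whey acidic protein domain, was at 5335, 850.2, 4823 and 721 CPM (log2 -2.65 and -2.74), where Slpi itself was at -0.10 and -0.06. Serpinb6a was the higher one (1.42 and 2.02). In monocyte/macrophage-like cells 2 of 9 were higher (Timp2 and Serpinb6a) in each genotype, and 4 (Angptl4+/+) and 2 (Angptl4-/-) lower. Of all genes in that class 3.91% and 2.37% were higher and 3.38% and 2.44% lower. Wfdc21 was at -3.29 and -2.95 and Serpinb2 at -3.66 and -1.16.

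Of 14 neutrophil granule and maturation genes, 6 were lower and 1 (Csf3r) higher at 5 dpw in Angptl4+/+ neutrophil-like cells, and 7 lower and 0 higher in Angptl4-/- (medians -0.83 and -1.12), against the same shares of all genes, 30.7% and 32.9% higher and 1.86% and 1.78% lower. The granule gene Ngp was at -4.12 and -4.66 and Retnlg at -3.42 and -3.43. Stfa2 and Stfa3 lay between the medians of this list and the values of Ngp and Retnlg. Between genotypes 0 of 14 passed at 1 dpw, and at 5 dpw 1 of 12 was higher (Cd177, 1.64) and 1 lower (Ltf, -1.16). Of all genes 0.309% were higher and 0.649% lower at 1 dpw, and 0.565% each way at 5 dpw.

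Of 15 other symbols of the family, 12 were found and 2 had enough UMIs in neutrophil-like cells for the comparison of days. Csta3, among those not found, is the RefSeq symbol of Gm5416, which was found, so the symbols are not all separate genes. Gm5416, a further stefin gene of the locus between Gm5483 and Stfa1 (RefSeq symbol Csta3), was at 25.2, 62.8, 26.4 and 54.3 CPM, higher at 5 dpw (1.32 and 1.04), opposite to Stfa2 and Stfa3. The neighbouring 2010005H15Rik was at 148, 104, 115 and 120.3 (-0.52 and 0.07). Over all genes of the class the median was at 0.66 and 0.69, and 30.7% and 32.9% were at least 2-fold higher. BC117090 had 19 to 70 UMIs per library, Csta1 and Cst6 at most 3, and Cst8 to Cst13 and Cstl1 had 0.

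The genes whose levels were most like each member were named by their Pearson correlation of log2(CPM + 1) over pools of cells from 1 cluster and 1 library. For the stefin A sum, over 24 neutrophil-like pools, they were Tiparp (0.87), Smox, Dgat2, Clec4d and Adgrg3 (0.84). Over 42 pools of all clusters they were Sgpl1 (0.95), Fnip2, Wsb2, Ftl1 and Plekhm2 (0.92) for Cstb, and Pip4k2a (0.94), Tax1bp3, Fgd2, Parp8 and Stat5a (0.92) for Cst3. Slpi was closest to Acod1, Arg2, Gadd45a, Cxcl2 and Nlrp3 (all 0.98), and Cst7 to Pkp3 (0.94), Klrk1, Klrd1, Cd7 and Serpinb9 (0.92). Pools of 1 library share its depth and preparation, and the values follow cell classes, so they are a description.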

How the data were processed

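Per the labels and the study's methods, the authors sorted live CD45+ cells, made droplet libraries with 3′ chemistry (10x Chromium V3), aligned and counted with Cell Ranger 3.1.0 to mm10 (GRCm38) and analysed with Seurat 3.0. The deposited counts are UMIs per gene and barcode, not normalized. Cells with at least 200 genes and at most 10% mitochondrial UMIs were kept (19827 of 20069), integrated across libraries and clustered (Seurat 5.3.0, R 4.3.3, 2000 variable genes, 30 dimensions, resolution 0.5) without the 10 genes, the family list and Angptl4. Classes were named from fixed markers. Doublets were kept; Scrublet (scanpy 1.11.5) marked 6 cells by its automatic threshold, too few to use, so an alternative left out the top 4% of scores per library. UMIs were summed per class and library (Python 3.11.15, scipy 1.17.1): CPM with exact Poisson intervals, log2 ratios with exact conditional binomial intervals, shares of cells thinned to 1000 UMIs. With 1 library per group no test was run. Correlations across cells used ln(1 + 10000 × UMIs / total). Members, gene lists and motifs were chosen with earlier results of these data known. Named genes were the 10 members in every class, the 2 highest and 2 lowest of each list where values are discussed, and the 5 genes most like each member. The 8 alternatives covered filters, integration, resolution, doublets, thinning, equal weight per cell, median-ratio scaling and another denominator. The ratios and their intervals were checked on simulated pooled counts that held counting error but no spread between cells. No cell type table of the authors was used here.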

Additional observations from a re-analysis of the deposited data

Results flagged for a closer look

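For 3 results the genotype difference had opposite signs at 1 and 5 dpw, with a counting interval that excluded 0 on both days. With 1 library per group this rests on 1 pair of libraries per day, and the difference between days was not tested. BC100530 in neutrophil-like cells had a log2 ratio of Angptl4-/- over Angptl4+/+ of 0.20 at 1 dpw and -0.25 at 5 dpw. Cstb in neutrophil-like cells had 0.072 and -0.0508. Slpi in monocyte/macrophage-like cells had -0.24 and 0.39. Stfa2 (0.05 and -0.12) and Stfa3 (-0.14 and 0.15) in neutrophil-like cells also changed sign, but their intervals at 5 dpw included 0. BC100530 shares 63.0% of its 3′-end words of 31 bases with Stfa1, and Slpi at 5 dpw lay within the range of neutrophil marker genes in monocyte/macrophage-like cells. The intervals leave out the spread between cells, and the top 5% of neutrophil-like cells held at least 95.7% of the BC100530 UMIs. Within clusters, BC100530 was higher in Angptl4-/- in 4 of 5 at 1 dpw and in 2 of 5 at 5 dpw (-1.42 to 1.56). Cstb was higher in 3 of 6 at 1 dpw and in 0 of 6 at 5 dpw. Slpi was higher in 0 of 3 at 1 dpw and in 2 of 3 at 5 dpw (-0.94 to 1.197).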

How the results depend on the processing

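With 1 library per group there is no spread between replicates, and the intervals cover counting error alone. No paired analysis was possible because each group has 1 library, so the groups share fewer than 2 replicate numbers, and no result comes from a test. Of 75 results, 18 were past 2-fold. The count that did not move beyond its interval was 75 without integration, 75 at resolution 1.0, 70 with the stricter filter, 66 with mitochondrial and ribosomal genes left out of the denominator, 50 without likely doublets, 35 with equal weight per cell, 34 with median-ratio scaling and 32 in thinned cells. Stfa2 and Stfa3 in neutrophil-like cells stayed more than 2-fold lower at 5 dpw under all 8 alternatives in both genotypes, and Cst3 stayed more than 2-fold higher under all but median-ratio scaling (0.90 and 0.65). The number past 2-fold was 19 with that scaling (3 new) and 18 without likely doublets (5 new). It was 15 with the stricter filter, 16 without integration and 18 at resolution 1.0. Thinned it was 13, at equal weight 14 and with the other denominator 16. The 5 new ones were stefin A ratios in monocyte/macrophage-like cells. Among these, the sum between days in Angptl4-/- went from -0.56 to -1.06. Between genotypes at 1 dpw, Stfa1 went from 0.31 to 1.68 and Stfa2 from -0.68 to -1.87. The stefin A sum in neutrophil-like cells, at log2 0.02 between days in Angptl4+/+, became -0.0131 thinned, -0.0136 at equal weight, -0.64 with median-ratio scaling and 0.0349 with the other denominator; in Angptl4-/-, at -0.01, it became -0.69 and 0.0107 under the last pair. Its genotype ratio of 0.05 at 1 dpw became 0.0292 thinned, 0.0111 at equal weight and 0.14 with median-ratio scaling, and that of 0.03 at 5 dpw became 0.0447 thinned and 0.10 with median-ratio scaling. Cst3 in monocyte/macrophage-like cells, at 0.33 between days in Angptl4+/+, became 0.41 at equal weight, 0.23 with median-ratio scaling and 0.38 with the other denominator; in Angptl4-/-, at 0.38, it became 0.61 thinned, 0.54, 0.33 and 0.43 in the same order. Its genotype ratio of -0.07 at 1 dpw became -0.14 thinned, and that of -0.02 at 5 dpw became 0.12 thinned and 0.0301 at equal weight. Without likely doublets 3 stefin A ratios in monocyte/macrophage-like cells turned: BC100530 between days in Angptl4-/- from -2.25 to 0.21, BC100530 between genotypes at 1 dpw from 1.22 to -0.89 and Stfa2 between genotypes at 5 dpw from -2.77 to 0.32; the cause was not tested. With a minimum of 20 UMIs in place of 100, genes past 2-fold higher and lower numbered 3678 and 200 in Angptl4+/+ neutrophil-like cells between days, 3894 and 194 in Angptl4-/-, 79 and 271 between genotypes at 1 dpw and 134 and 260 at 5 dpw. In monocyte/macrophage-like cells they numbered 791 and 510, 544 and 371, 123 and 167, and 177 and 212.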
